A study of Mus musculus with 15 samples.

Results

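The open chromatin of wild-type (WT) microglia was compared between postnatal day 9 (P9) and postnatal day 14 (P14), using 4 of the 15 ATAC-seq libraries of the series, 2 at each age. The 4 peak lists gave 194821 sites on chromosomes 1 to 19 and X, taken from every summit in the lists with at least 400 bp between sites. All cells were microglia sorted by flow cytometry from C57BL/6 mice, and the WT libraries at both ages came from untreated animals. For side-by-side levels, 3 libraries of untreated IRF8KO mice at P9, 2 of untreated IRF8KO mice at P14 and 2 of WT mice at 10 months, which had received the amyloid dye MetoxyX04, were read as well. How the IRF8KO allele was made, and whether replicates are different mice, is not in the labels, so the replicate spread behind the p-values may be a technical one.

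Microglia are the resident macrophages of the brain. They settle before birth, multiply and clear cells and synapses in the early postnatal weeks, and then take on a surveying adult state that is held by lineage factors such as PU.1 (Spi1), IRF8 and SALL1. ATAC-seq uses a transposase that cuts accessible DNA, so a peak marks an active promoter, an enhancer or another open element. The deposited lists hold peaks and no reads. Each peak was therefore described by its rank in its own list, rank 1 being the peak with the largest −log10 p of the authors' peak caller, and a shift is a change of rank.

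The 4 libraries differed in strength in the order of age. At rank 30000, the peak had a −log10 p of 39.1 and 54.3 in the P9 replicates and of 61.8 and 68.2 in the P14 replicates, with no overlap between ages. This value was 73.4 to 80.6 in IRF8KO at P9, 22.8 to 26.6 in IRF8KO at P14 and 18.6 and 23.1 in WT at 10 months. The WT lists held 162502 and 149563 peaks at P9 and 140138 and 149604 at P14. Names of the P14 lists carry a mark of merging that those of P9 lack, so any step it stands for cannot be told apart from age. The cell type was checked at gene starts. A peak among the 30000 best of each of the 4 WT libraries lay within 1 kb of the start of 10 of 16 microglial identity genes with a listed start, Sall1, Cx3cr1, Siglech, Fcrls and Mertk among them. The same held for 0 of 10 neuronal, 0 of 8 astrocyte, 0 of 9 endothelial and mural and 0 of 7 lymphocyte marker genes, 2 of 7 of the oligodendrocyte lineage (Mog and Cnp), 2 of 9 of neutrophils (Cxcr2 and Csf3r), 1 of 6 of monocytes (S100a4) and 1 of 11 of border-associated macrophages (Dab2). Over all protein-coding genes with a listed start it held for 41.8%.

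Called sites lay at the starts of 5 genes, and all 5 ranked lower at P14. Their promoters are printed because they are the sequences at which a shift was called. Each line holds the 250 bases before the start site in RefSeq, 5′ to 3′ on the gene's strand (GRCm38.p6, the assembly of mm10): chr10:44268089-44268338 (plus strand) for Atg5, chr7:64392372-64392621 (plus) for Mcee, chr1:60098501-60098750 (minus) for Wdr12, chr6:94700146-94700395 (minus) for Lrig1 and chr10:22149271-22149520 (minus) for E030030I06Rik. Capitals mark matches, on either strand, to 12 motifs that were searched: an E-box (CACGTG) in Atg5, an IRF motif (GAAANNGAA) and a CCAAT box (CCAAT, bound by NFY) in Mcee, and a CCAAT box in Lrig1 and in E030030I06Rik. Wdr12 held none.
Atg5: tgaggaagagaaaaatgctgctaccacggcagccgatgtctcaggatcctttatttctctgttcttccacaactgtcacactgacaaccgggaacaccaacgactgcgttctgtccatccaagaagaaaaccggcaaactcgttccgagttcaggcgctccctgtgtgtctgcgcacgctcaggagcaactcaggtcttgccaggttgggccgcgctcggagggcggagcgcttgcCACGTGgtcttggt
Mcee: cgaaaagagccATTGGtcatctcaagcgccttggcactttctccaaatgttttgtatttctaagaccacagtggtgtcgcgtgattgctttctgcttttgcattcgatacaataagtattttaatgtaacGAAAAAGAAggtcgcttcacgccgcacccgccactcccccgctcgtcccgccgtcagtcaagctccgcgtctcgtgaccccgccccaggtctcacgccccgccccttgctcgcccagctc
Wdr12: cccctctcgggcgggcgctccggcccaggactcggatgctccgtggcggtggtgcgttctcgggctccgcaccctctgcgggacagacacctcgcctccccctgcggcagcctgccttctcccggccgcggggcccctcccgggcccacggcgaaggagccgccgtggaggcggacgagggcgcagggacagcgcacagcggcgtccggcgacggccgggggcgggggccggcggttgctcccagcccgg
Lrig1: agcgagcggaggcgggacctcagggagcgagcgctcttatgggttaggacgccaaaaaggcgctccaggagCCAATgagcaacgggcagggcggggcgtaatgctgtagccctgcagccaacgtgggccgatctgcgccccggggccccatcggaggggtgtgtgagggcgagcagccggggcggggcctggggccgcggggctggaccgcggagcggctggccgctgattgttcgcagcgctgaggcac
E030030I06Rik: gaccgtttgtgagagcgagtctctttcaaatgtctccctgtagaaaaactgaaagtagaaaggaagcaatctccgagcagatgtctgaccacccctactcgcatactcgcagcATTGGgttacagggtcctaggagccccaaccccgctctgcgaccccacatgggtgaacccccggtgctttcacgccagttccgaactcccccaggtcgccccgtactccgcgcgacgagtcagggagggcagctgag

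The 5 promoters shared no motif that all of them held, and their GC content ran from 54.8% in Mcee to 79.6% in Wdr12. CCAAT is common, being present in 38.5% of the 21045 promoters given (300 bases each, from 250 before to 50 after the start). The E-box was in 7.91% of them and the IRF motif in 8.10%.

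The landscape as a whole differed little between the ages. Of the 194821 sites, 83895 (43.1%) had a summit within 200 bp in all 4 libraries and 73923 (37.9%) in 1 library. Presence followed strength: 100% of the 12041 sites whose best rank was within 10000 had a summit in all 4 libraries, as did 95.9% of those with a best rank of 30001 to 60000, against 1.44% of those beyond 100000. At the 83895 shared sites the summits lay a median of 9 to 11 bp apart in every pair of WT libraries, within and between ages.

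Strong sites overlapped between ages about as much as between replicates. With the 30000 top peaks of each list, the Jaccard index, the shared share of the joint set, was 0.808 for the P9 replicates, 0.825 for the P14 replicates and a mean of 0.807 (0.792 to 0.822, 4 pairs) between ages. Among the 1000 top peaks the values were 0.645, 0.624 and 0.597 (0.567 to 0.632), where the mean between ages lay below both replicate pairs. The comparison has 3 ways to split 4 libraries into pairs and was not tested. Of the 33637 sites that were strong in any WT library, 22886 (68.0%) were strong in all 4.

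**Figure D1:**
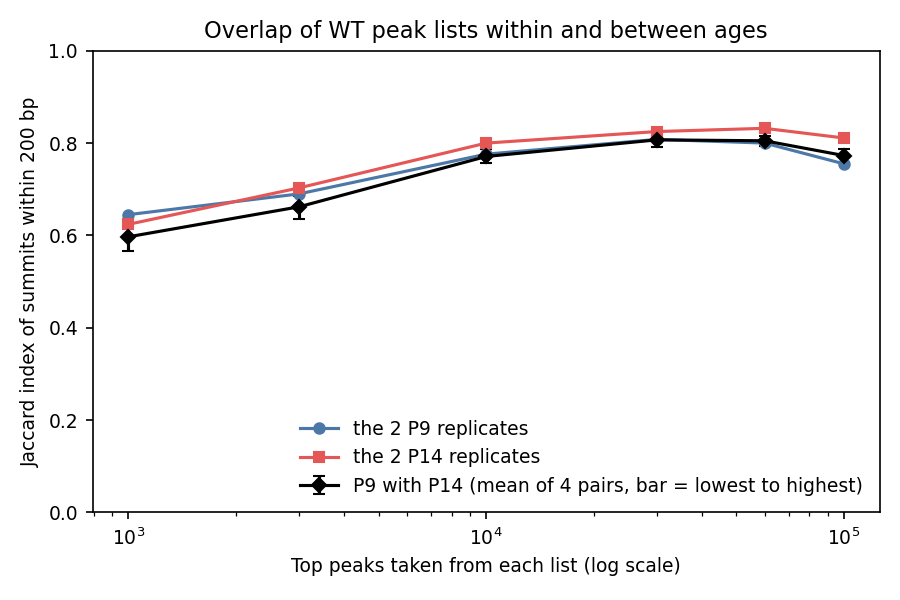
Jaccard index of WT peak lists (y axis) against the number of top peaks taken from each list (x axis, log scale). Circles are the P9 replicates, squares the P14 replicates and diamonds the mean of the 4 pairs between ages, with bars from the lowest to the highest pair. The 3 curves lie close together, at 0.808, 0.825 and 0.807 for 30000 peaks.

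For a test of shifts, the sites with a summit in all 4 libraries were ranked again among themselves, and the 60000 best by mean score were kept. The score was −log2 of this rank, so a difference of 1 is a 2-fold change in rank and a positive difference from P9 to P14 means a better rank at P14. The SD of the difference between 2 libraries was 0.44 for the P9 replicates, 0.40 for the P14 replicates and 0.43 to 0.49 between ages. Across sites, the Spearman correlation was 0.901 and 0.925 between replicates and 0.889 to 0.913 between ages, a description over sites that share a library. The age difference lay within 0.5 for 87.3% of the sites and within 1 for 98.8%, with a median of 0.003.

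limma called 20 of 60000 sites (0.0333%) at an adjusted p under 0.05, of which 3 ranked higher at P14 (0.00500%) and 17 ranked lower (0.0283%). At an unadjusted p under 0.05 there were 5085 sites (8.48%). On simulated shifts in libraries with this spread, the same fit recovered 82% of 4-fold moves in rank and 5% of 2-fold moves, so moves of 2-fold were mostly out of reach. The moved sites were drawn at random from the 60000, so these shares are averages over all ranks. Replicates spread more at the top, with an SD of 0.94 and 1.03 within a mean rank of 1000, and recovery there was not given separately. The count rested on the setting: it was 0 in both directions with the authors' fold enrichment in place of rank or with all shared sites tested, and 180 higher and 197 lower without replicate 2 of P9. It was 21 and 51 without replicate 1 of P9, 24 and 20 without replicate 2 of P14, and 3 and 12 without replicate 1 of P14, where 10 of the 20 sites were still called.

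**Figure D2:**
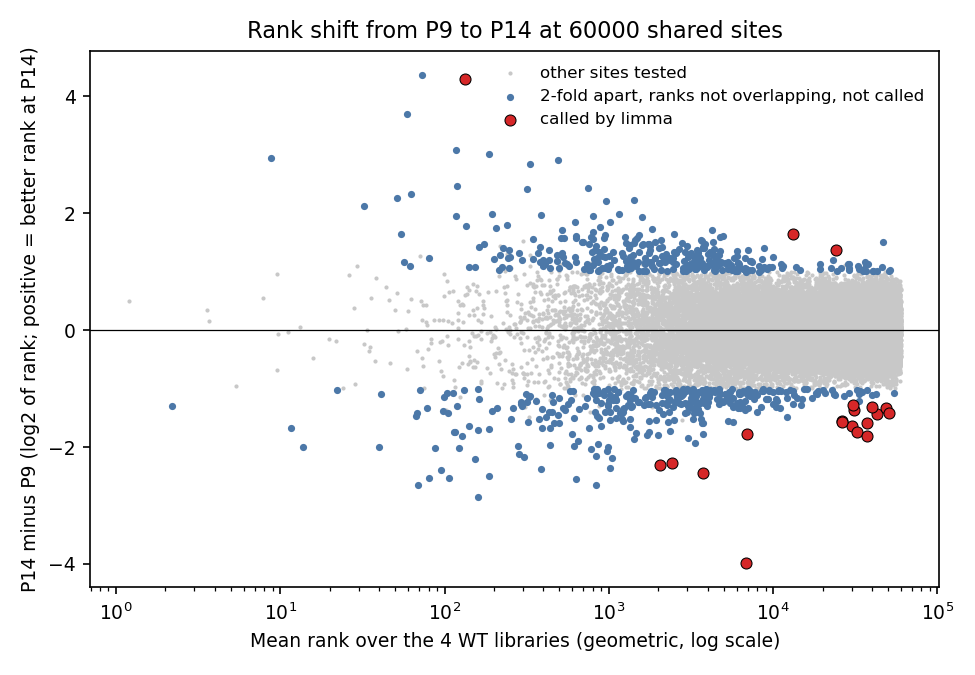
Difference of the rank score from P9 to P14 (y axis, log2 of rank, positive for a better rank at P14) against the geometric mean rank over the 4 WT libraries (x axis, log scale) at 60000 sites. Large red points are the 20 sites called by limma, blue points the other sites that were 2-fold apart without overlap, and grey points the rest. The cloud widens towards the best ranks, and most called sites lie below 0 at weaker ranks.

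The largest fall was inside Slc25a26, which encodes the mitochondrial carrier of S-adenosylmethionine. In the lists' own ranks, which differ a little from the ranks behind the score, this site (chr6:94532070-94532470), ranked 2715 and 1097 at P9 and 76980 and 11628 at P14. The P14 replicates stood far apart, yet both ranked below both P9 replicates. The difference was −3.98 (SE 0.45), a 15.8-fold fall in rank (limma adjusted p = 1.00e-06). It was −2.72 without replicate 1 of P14 and −5.25 without replicate 2. The SE draws mostly on other sites of similar score, through the variance trend of the fit, and less on this site's replicates. The limma adjusted p was 0.0346 without that trend and 0.136 with all shared sites tested. The authors' fold enrichment was 19.6 and 24.3 at P9 and 7.2 and 20.2 at P14. In IRF8KO and at 10 months the same site ranked from 1029 to 3087, near the P9 level of WT.

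At gene starts, the site of Atg5, which is needed to form autophagosomes (chr10:44268240-44268640, summit 101 bp past the start), ranked 829 and 1050 at P9 and 3730 and 5724 at P14. The difference was −2.30 (SE 0.45, limma adjusted p = 0.0233). The site of Mcee, the mitochondrial methylmalonyl-CoA epimerase (chr7:64392476-64392876, 54 bp past the start), ranked 991 and 1248 at P9 and 5584 and 5223 at P14. Its difference was −2.27 (SE 0.43, limma adjusted p = 0.0144), and neither promoter's P9 and P14 ranks overlapped. The remaining starts were weaker sites. Lrig1, an inhibitor of receptor tyrosine kinases (chr6:94700146-94700546), ranked 27102 and 18720 at P9 and 71735 and 80669 at P14, with a difference of −1.59 (SE 0.24, limma adjusted p = 6.99e-04). The site that overlaps Carf and has its summit at −206 bp from the start of Wdr12, a factor of ribosome assembly (chr1:60098506-60098906), ranked 18106 and 17939 at P9 and 56885 and 64694 at P14. Its difference was −1.64 (SE 0.24, limma adjusted p = 4.96e-04). E030030I06Rik ranked 17849 and 24122 at P9 and 65671 and 43411 at P14 (−1.28, SE 0.25, limma adjusted p = 0.0251).

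Inside genes, the site in Cldn34d, a claudin family gene (chrX:76598774-76599174), ranked 1135 and 2326 at P9 and 10130 and 7937 at P14, a difference of −2.44 (SE 0.41, limma adjusted p = 0.00267). The site in Enox1, a cell-surface NADH oxidase (chr14:77524294-77524694), ranked 24347 and 18194 at P9 and 69075 and 121923 at P14, a difference of −1.81 (SE 0.25, limma adjusted p = 8.25e-05). In Magi1, a scaffold protein of cell junctions (chr6:93718380-93718780), ranks were 3795 and 3832 at P9 and 16348 and 10854 at P14, with a difference of −1.77 (SE 0.34, limma adjusted p = 0.0180). Ranks of the ages did not overlap at any of these sites. The authors' fold enrichment changed little in Cldn34d, at 26.1 and 26.6 at P9 and 25.2 and 25.7 at P14. In Magi1 it was 18.6 and 20.3 against 16.6 and 18.4, and in Enox1 13.7 and 21.0 against 8.3 and 3.8. The annotation used here gives gene bodies without exons, so exons and introns were not told apart.

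Outside protein-coding genes, the called lower sites were nearest to Frmd4a (53.1 kb away, a FERM-domain scaffold), Dnajc15 (30.7 kb, a mitochondrial co-chaperone), Sepsecs (7.6 kb, an enzyme of selenocysteine synthesis), Cacng3 (52.0 kb, an auxiliary subunit of AMPA receptors), Ints1 (5.9 kb, a subunit of the Integrator complex) and Dctn6 (35.9 kb, a dynactin subunit), with differences of −1.31 to −1.74. The sites nearest to Dnajc15 and Dctn6 lay inside the lncRNA genes Gm1587 and Gm40487. At Frmd4a the P9 replicates stood apart, at 9678 and 36039, against 64580 and 71725 at P14, and the difference went from −1.74 to −0.82 without replicate 1 of P9 (limma adjusted p = 0.274) and −2.65 without replicate 2. The site near Ints1 ranked 17710 and 23228 at P9 and 56048 and 55581 at P14, and it was in none of the other 7 libraries, whose lists were read down to rank 126060. The 2 remaining called sites, inside Mtus1 and Rbpms, fell outside the rule for naming genes, whose limits were a mean rank within 30000 at the higher age and 12 sites a direction. Ints1, Dctn6 and E030030I06Rik came after the 12, and these 5 are named after their values were seen. Mtus1, a microtubule-associated protein, ranked 29991 and 36691 at P9 and was not among the 126060 top peaks of either P14 library (−1.42, limma adjusted p = 0.00267). The RNA-binding protein Rbpms had its called site at 37973 and 28940 at P9 and 94014 and beyond 126060 at P14 (−1.34, limma adjusted p = 0.00650).

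Some called sites were neighbours, 7 of the 20 lying within 1 Mb of another called in the same direction. Magi1, Slc25a26 and Lrig1 follow one another on chromosome 6, Enox1 and Dnajc15 on chromosome 14, and Rbpms and Dctn6 on chromosome 8. No test of this clustering was run.

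Of the 3 sites that ranked higher at P14, the strongest lay 8.4 kb from Rimbp3, a gene of sperm development (chr16:17222173-17222573). It ranked 278 and 1268 at P9 and 17 and 54 at P14, a difference of 4.30 (SE 0.89, limma adjusted p = 0.0437). The authors' fold enrichment changed far less, at 36.6 and 33.9 at P9 and 43.0 and 41.4 at P14. With quantile-normalized log2 fold enrichment in place of rank, the difference was 0.07 (limma adjusted p = 0.693). The call was lost without replicate 2 of P9 (3.21, limma adjusted p = 0.249) and without replicate 1 of P14 (3.48, limma adjusted p = 0.0886). Its rank was 16 to 28 in IRF8KO at P9, 121 and 173 in IRF8KO at P14 and 285 and 809 in WT at 10 months. The groups with the strongest libraries held the best ranks, but this order did not hold throughout. At P9 in WT the weaker library ranked the site 278 and the stronger one 1268. The weaker IRF8KO libraries at P14 ranked it better than both. The part of library strength in this shift was not tested. The second site had no protein-coding gene within 100 kb (chr14:71209016-71209416). It ranked 28869 and 21097 at P9 and 7367 and 7736 at P14 (1.65, SE 0.30, limma adjusted p = 0.00650). The site was not among the 126060 top peaks of any of the other 7 libraries. The third lay 2.5 kb before Il21r, the receptor of interleukin-21 (chr7:125600588-125600988). It ranked 42753 and 41806 at P9 and 14441 and 16673 at P14 (1.38, SE 0.26, limma adjusted p = 0.0105), and 9399 to 23289 in the other 7 libraries.

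Since fewer than 12 sites were called higher, the rule for naming genes also took the next 9 by the moderated t, and limma called none of them. They lay at Arhgap12 and Arhgap5 (GTPase-activating proteins), Gphn (the scaffold gephyrin), Uvrag (an autophagy factor), Spire2 (an actin nucleator), Iho1 (a meiosis gene), Tra2a (a splicing factor), Rhob (a small GTPase) and in a region of chromosome 8 without a gene. Their adjusted p ran from 0.0724 to 0.100. The site 7.4 kb from Tra2a had the largest difference, with ranks of 212 and 525 at P9 and 10 and 27 at P14 (4.36, SE 0.99, limma adjusted p = 0.0993). The site inside Gphn ranked 1659 and 1104 at P9 and 136 and 238 at P14 (2.91, SE 0.63, limma adjusted p = 0.0734).

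**Figure D3:**
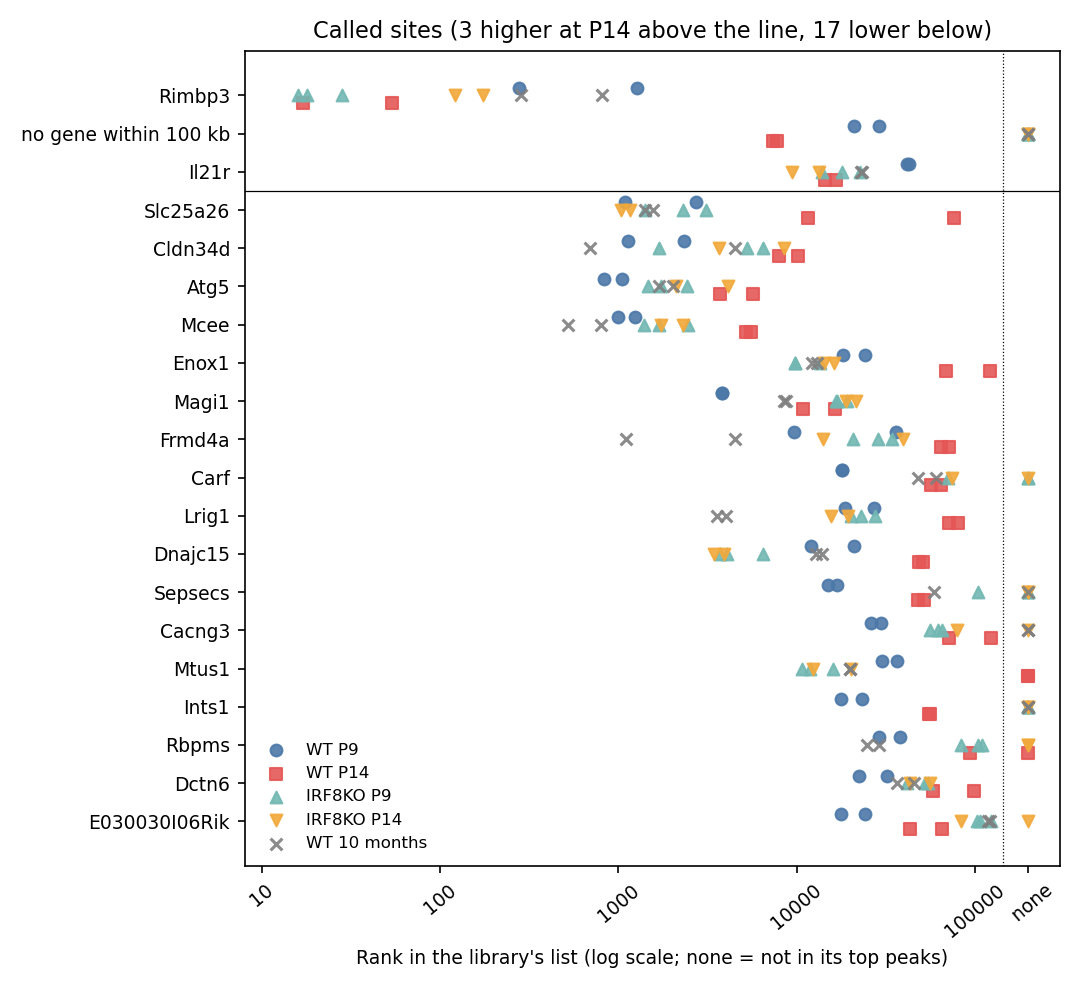
Rank of the 20 called sites (rows, by nearest gene) in the lists of 11 libraries (x axis, log scale). Points right of the dotted line mark sites missing from the 126060 top peaks of a library. At 8 of the 17 lower sites, every IRF8KO and 10-month library (triangles and crosses) ranks the site better than both WT P14 libraries (squares).

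The other libraries did not put the called lower sites at one level. At 8 of the 17, those of Slc25a26, Mcee, Enox1, Frmd4a, Lrig1, Dnajc15, Mtus1 and Dctn6, all 7 IRF8KO and 10-month libraries ranked the site better than both WT P14 libraries. The 2 libraries at 10 months did so at 12 of the 17. At 8 of the 17, those of Atg5, Magi1, Carf, Sepsecs, Cacng3, Ints1, Dctn6 and E030030I06Rik, all 7 ranked the site worse than both WT P9 libraries. Dctn6 stands in both groups, between the WT ages.

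Gain or loss of a strong site was rare. A site was counted when it was among the 30000 top peaks of both libraries of one age and had no summit within 400 bp among the 140138 top peaks of either library of the other age. This gave 1 site at P14 only, of 25366 strong at that age (0.00394%), and 3 at P9 only, of 25080 (0.0120%); with any 1 library left out the counts were 1 to 3 and 3 to 5. The P14 site lay inside Igk, the locus of the immunoglobulin kappa light chain (chr6:69318796-69319196), at ranks 12975 and 6898 with the authors' fold enrichment of 34.5 and 41.2. It ranked 3031 and 4015 in IRF8KO at P14, 62416 to 81606 in IRF8KO at P9, and was not among the 126060 top peaks at 10 months. Both P14 groups thus held it as a strong site, and no P9 library did. None of the 7 lymphocyte markers with a listed start had a strong site there in all 4 WT libraries. That count asks for a strong site in both P9 libraries as well, so it cannot show a lymphocyte signal present at P14 only.

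The P9 sites were found in other groups as well. The site in Enox1 (chr14:77447995-77448395) ranked 22735 and 22034 in WT at P9 and 4986 to 12258 in the IRF8KO and 10-month libraries. The site in Rbpms (chr8:33890914-33891314) ranked 21331 and 26789 in WT at P9, 29404 to 90946 in IRF8KO, and 7740 and 10116 at 10 months. The third, far from any protein-coding gene (chr14:89746706-89747106), ranked 18232 and 10333 in WT at P9 and 4112 to 51820 in the other 7. WT at P14 was therefore the group without these 3 sites, and Enox1 and Rbpms each also held a called lower site.

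A broader description used sites whose ranks did not overlap between ages and whose mean scores differed by at least 1, a rule chosen after the first results were seen. By it, 321 sites were higher at P14 (0.535%) and 364 lower (0.607%). It favours the top of the lists, where ranks vary most: 21.0% of the sites with a mean rank within 1000 met it, against 0.115% beyond 30000, and the SD between replicates was 0.94 and 1.03 in the former and 0.39 and 0.33 in the latter.

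Gene starts made up most of the 2-fold lower sites. Sites within 1 kb of a listed start made up 19.8% of the sites tested, 59.0% of the 2-fold lower and 27.3% of the 2-fold higher ones. Sites inside gene bodies made up 45.6%, 18.8% and 35.7%. Of the sites at starts, 1.80% were 2-fold lower and 0.739% 2-fold higher. The median age difference at starts was −0.059, while the difference between the P9 replicates (replicate 2 minus 1) was −0.069, that between the P14 replicates −0.044 and the age difference in IRF8KO −0.001. Starts are also more common at the top of the lists, at 59.4% of sites with a mean rank within 1000.

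Within starts, the age difference was more negative at a higher GC content of the promoter, and so were the replicate differences. With the sites cut into 5 bins of about equal size, from the lowest bin (32.3% to 54.0% GC) to the highest (70.0% to 88.0%), the median went from −0.001 to −0.136 for age in WT, from 0.021 to −0.145 between the P9 replicates and from −0.001 to −0.076 between the P14 replicates. In IRF8KO it was 0.033 and 0.031. The lowest bin held 23 sites 2-fold higher and 21 lower, the highest 1 and 55. A GC trend of this size thus appeared between replicates of one age, and its part in the shift at starts was not tested.

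**Figure D4:**
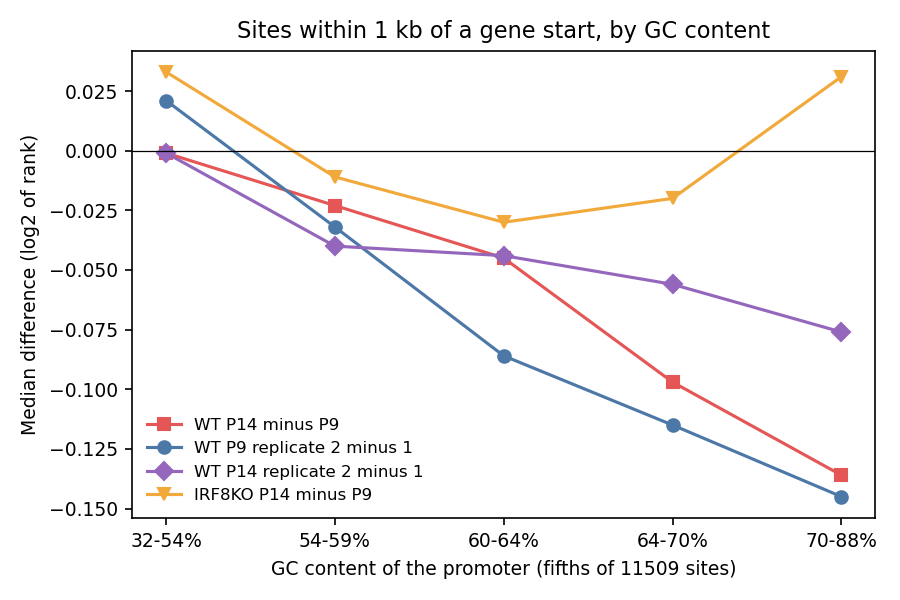
Median difference of the rank score (y axis, log2 of rank) at 11509 sites within 1 kb of a gene start, by 5 bins of promoter GC content (x axis). Squares are P14 minus P9 in WT, circles and diamonds the differences between WT replicates, and triangles P14 minus P9 in IRF8KO. The WT age and P9 replicate curves fall to −0.136 and −0.145, and the IRF8KO curve ends at 0.031.

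Motifs were compared in the same promoters. CCAAT was in 69.4% of the 85 promoters with a 2-fold higher site and 61.8% of the 207 with a 2-fold lower site, against 39.2% of promoters with a tested site. It was also in 63.2% of the promoters at sites with a mean rank within 5000, where most of these shifts lie. AP-1 (TGANTCA) was in 9.41% of the higher, 2.90% of the lower and 4.42% of the tested promoters. The IRF motif was in 4.71%, 3.86% and 7.10%, and PU.1/ETS (GAGGAAGT) in 4.71%, 3.38% and 3.48%. A match describes the letters of the window and not the binding of a factor.

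At the genes that define microglia, no shift was called. None of the sites of Sall1, P2ry12, Tmem119, Cx3cr1, Csf1r, Irf8 and Spi1 was called or 2-fold apart without overlap. The best site of Sall1, a transcription factor of microglial identity, lay 90.4 kb away and ranked 8531 and 13325 at P9 and 8452 and 9187 at P14, with a difference of 0.27 (95% interval −0.38 to 0.92). That of the purinergic receptor P2ry12 ranked 1488 and 715 at P9 and 1179 and 386 at P14 (0.61, −0.57 to 1.79). Ages overlapped at both. Spi1, which encodes PU.1, ranked 4762 and 3129 at P9 and 3127 and 3798 at P14 (0.16, −0.65 to 0.96). Ages overlapped there too. The interval at P2ry12 leaves room for a shift of 2-fold or more. So do those at the best sites of Cx3cr1 (−0.61 to 1.12) and Csf1r (−1.41 to 0.73). Irf8 itself had 11 strong sites in each P9 library and 12 in each P14 library.

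Gene lists were described by their counts. Across 20 pathway lists and 8 lists of cell type markers, 0 of 2761 sites were called, against 0.0333% of all sites tested. Sites 2-fold apart without overlap numbered 17 higher (0.616%, against 0.535% over all sites) and 7 lower (0.254%, against 0.607%). List medians ran from −0.117 for astrocyte markers to 0.090 for antigen presentation, beside 0.004 over all sites with a gene. Lists for the cell cycle (122 sites tested), the interferon response (53), disease-associated microglia (164) and the circadian clock (72) held no such site. The same held for postnatal proliferation-associated and axon-tract microglia (96 sites). Marker lists of monocytes, neutrophils, lymphocytes, neurons, the oligodendrocyte lineage and astrocytes held none either. At the shares over all sites, lists of these sizes would hold few such sites or none.

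The higher sites of the lists lay mostly outside gene starts, and limma called none of those named here (adjusted p of 0.127 to 0.340). Genes of the lists are named after their values were seen, since no list held a called site. In antigen presentation, a site 7.4 kb from the class I gene H2-D1 ranked 47452 and 59146 at P9 and 29061 and 20997 at P14. A site 12.8 kb from Marco, a scavenger receptor, ranked 5822 and 6510 at P9, 2164 and 2450 at P14 and 5674 and 5009 at 10 months. In the 5 IRF8KO lists it was at ranks 125217 and 120871 in replicates 1 and 3 of P9 and missing from the 126060 top peaks of the others. Among transcription factors, the site 1.0 kb from Maf ranked 16153 and 7024 at P9 and 3445 and 5708 at P14, and the site 20.3 kb from Cebpa, a myeloid factor, 3529 and 2036 against 865 and 1094. Tnfaip3, a brake on NF-kB signalling, had a site at 6905 and 6203 against 4216 and 1283. The engulfment receptor Mertk had one at 9803 and 7139 against 3665 and 4264.

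The lower sites of the lists included promoters. At the start of Tgfbr1, the type I receptor of TGF-beta, ranks were 2675 and 3726 at P9 and 6562 and 7871 at P14, a difference of −1.18 (limma adjusted p = 0.323). At Ddit4, a stress-induced inhibitor of mTOR, ranks were 1485 and 1430 against 2802 and 4325 (−1.25, limma adjusted p = 0.374). Inside Lrp1, a lipoprotein receptor, they were 15827 and 13649 against 29422 and 31957 (−1.02, limma adjusted p = 0.181). Tgfbr1 and Ddit4 are both among the starts, whose trend with GC is given above.

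IRF8KO libraries, which share no sample with the WT comparison, gave a separate measure of the same ages. Of the 316 sites 2-fold higher at P14 in WT that could be tested, 142 (44.9%) moved the same way in IRF8KO. Over all sites tested in both fits, 49.8% ranked higher at P14 in IRF8KO, whatever their WT shift. Of the 353 lower sites, 180 (51.0%) moved the same way, and 50.2% of all sites ranked lower at P14 in IRF8KO. Among called sites it was 1 of 2 higher and 6 of 12 lower. The WT direction was thus met in IRF8KO about as often as that direction occurred over all sites.

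IRF8KO had its own shifts, with 1271 of 60000 sites called higher at P14 (2.12%) and 1127 lower (1.88%) in the fit of 9 libraries, which called 0 higher and 2 lower in WT. These counts rested on single libraries, being 343 and 366 without replicate 1 of IRF8KO at P9, 443 and 472 without its replicate 2, 490 and 469 without its replicate 3, 2011 and 1158 without replicate 2 of IRF8KO at P14 and 2345 and 1512 without replicate 1 of IRF8KO at P14. Among the called sites were 20 of the 669 in this fit that were 2-fold apart in WT, 11 in the same direction and 9 in the opposite. This share is to be read beside the 2.12% and 1.88% called over all sites. The site at the start of Mroh2a ranked 347 and 342 in WT at P9, 66 and 26 in WT at P14, 349 to 565 in IRF8KO at P9, 67 and 47 in IRF8KO at P14 and 6186 and 3298 at 10 months. It rose in IRF8KO (3.13, limma adjusted p = 0.0108) and had a WT difference of 3.09 (limma adjusted p = 0.239). A site inside Arhgap18, a GTPase-activating protein, fell in IRF8KO (−3.00, limma adjusted p = 0.00200), with a WT difference of −1.12 (adjusted p = 0.276). Both sites are among the 11. Among the 9, the site at the start of Mpc2 rose in IRF8KO (1.73, limma adjusted p = 0.0479), with a WT difference of −2.35 (limma adjusted p = 0.0924). These genes were chosen after their values were seen. The strength of the libraries moved in opposite directions with age in the 2 genotypes, rising in WT and falling in IRF8KO, and its part in these values was not tested.

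The difference between genotypes itself was called by limma at 151 sites (0.252%), 34 with the WT shift above the IRF8KO shift and 117 below. This count rested on single libraries: without replicate 1 of IRF8KO at P14 it was 411 above and 940 below, without replicate 2 of that group 207 and 564, and without any 1 of the other 7 libraries 0 to 2 above and 3 to 32 below. At the start of Ddit4 the shift was −1.25 in WT and 1.50 in IRF8KO, a difference of −2.74 (limma adjusted p = 0.0363, from the fit of 9 libraries).

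**Figure D5:**
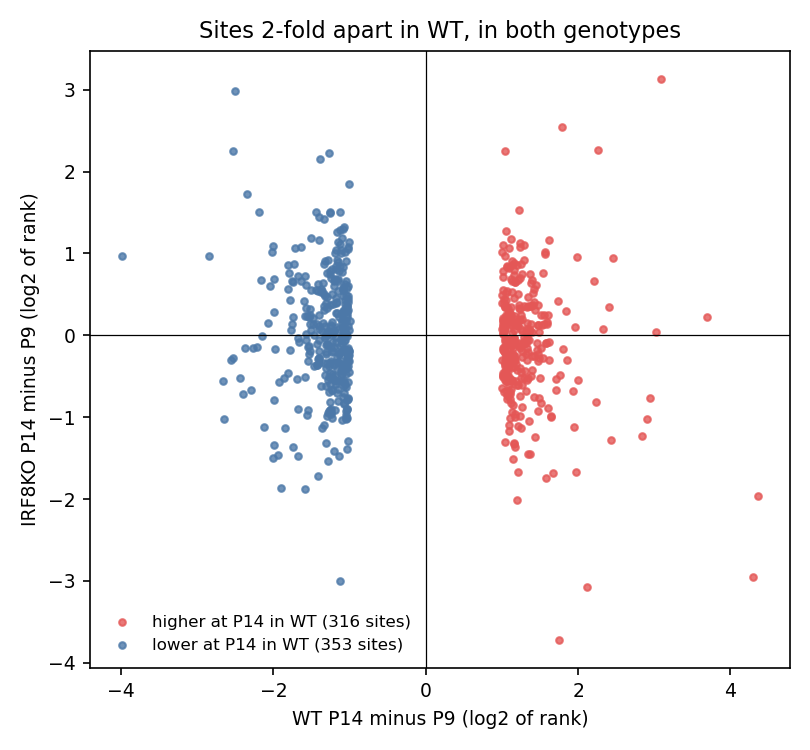
Difference of the rank score from P9 to P14 in IRF8KO (y axis, log2 of rank) against that in WT (x axis) at the 669 sites that were 2-fold apart without overlap in WT and had a summit in all 9 libraries. Points are sites, red for higher and blue for lower at P14 in WT. The gap around 0 on the x axis comes from the rule, and IRF8KO values lie on both sides of 0 for both colours (44.9% and 51.0% in the WT direction).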

How the data were processed

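Chromatin accessibility was measured by ATAC-seq in sorted microglia. The submitters' processing notes name bcl2fastq, deepTools, Bowtie2 and the peak caller MACS2 2.2.7.1, and the mm10 build; order and settings are not given in the sources used here. The authors deposited 1 peak list per library; for lists whose names carry a mark of merging, what was merged is unknown. Per the file format, the deposited columns are the fold enrichment at the summit (a ratio), −log10 p, −log10 q and the summit's offset in bp. Read depth is unknown, so no counting interval is given.

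Peaks were ranked by −log10 p. Sites, scores, filters and thresholds are given with the results. The score was tested with limma 3.58.1 (R 4.3.3; lmFit and eBayes with a trend, two-sided, Benjamini-Hochberg adjustment over 60000 sites), and the fit was tested on simulated data. With 2 libraries against 2, an exact permutation test cannot go below p = 0.333. Genotypes were compared in a limma fit of 9 libraries. Each site was given the protein-coding gene whose body was nearest, up to 100 kb away (RefSeq, GRCm38.p6); listed starts do not cover chromosome 18, and position shares leave it out. Of 472 list genes, 469 matched RefSeq symbols. Named genes were those of the 12 called sites with the largest difference in each direction, filled up by moderated t, then genes of sites at 1 age only, list genes with a called site (there were none) and defining microglial genes, of which 1 is not reported here; other names were chosen after their values were seen. The members and lists were chosen with earlier results of these data known. No 2 WT lists were identical (6 pairs compared). Other steps used pandas 2.3.3, scipy 1.17.1 and numpy 2.4.6 under Python 3.11.15. Libraries of 5xFAD mice were not analysed here.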

Additional observations from a re-analysis of the deposited data

Results flagged for a closer look

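Sites named for their WT shift and gene list sites 2-fold apart in WT were searched for a difference between genotypes. They were picked for the WT shift, which is a term of that difference, so calls are favoured among them. By the interaction term of the limma fit of 9 libraries, the shift from P9 to P14 differed at 7 of them. Over all sites tested, this difference was called at 151 of 60000 (0.252%). In 3 of the 7 the WT shift lay above that of IRF8KO. The difference was 7.24 near Rimbp3 (4.30 in WT, −2.95 in IRF8KO, limma adjusted p = 0.0158), 6.32 near Tra2a (4.36 and −1.97, limma adjusted p = 0.0421) and 1.52 near Arhgap12 (1.12 and −0.55, limma adjusted p = 0.0432). In the other 4 it lay below. The difference was −4.81 inside Slc25a26 (−3.98 and 0.97, limma adjusted p = 0.00704), −2.74 at the start of Ddit4 (−1.25 and 1.50, limma adjusted p = 0.0363), −1.78 at the start of Lrig1 (−1.59 and 0.42, limma adjusted p = 0.0280) and −1.19 at the start of E030030I06Rik (−1.28 and 0.04, limma adjusted p = 0.0377). The WT shifts come from the fit of 4 libraries, so they need not add up exactly.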

How the results depend on the processing

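The 3 sites called higher and 17 called lower became 2 and 11 with normal scores, 0 and 0 with quantile-normalized log2 fold enrichment, 6 and 9 among the 30000 best sites, 0 and 0 with all shared sites tested (6282 at an unadjusted p under 0.05, and 7596 with fold enrichment), 3 and 18 at −log10 q of at least 2 or within 100 bp, and 23 and 37 without a variance trend. Leaving out each library in turn gave 3 to 180 higher and 12 to 197 lower. Equal replicate numbers did not pair the libraries (correlation of deviations 0.01); the replicate block gave 42 higher and 51 lower. Over 12 alternatives the 20 sites gave 230 values, of which 154 were called and 76 were not. All were in the main direction, but most alternatives could not give another. Ranks of these sites did not overlap between ages, and every alternative except fold enrichment was built on ranks. The site inside Slc25a26 was called in 10 of 12, with adjusted p from 5.09e-29 to 0.328.

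The Jaccard index within P9, within P14 and between ages was 0.776, 0.800 and 0.771 for 10000 top peaks and 0.755, 0.811 and 0.773 for 100000. Sites at P14 only and P9 only numbered 1 and 1 with 20000 strong peaks and 4 and 7 with 50000, and 1 to 3 and 3 to 5 with a library left out. The 151 genotype differences became 94 above and 101 below among the 30000 best sites, and 0 to 411 above and 3 to 940 below with a library left out, an alternative added after seeing the data. Causes of these changes were not tested. Library strength and age cannot be told apart within WT.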

Other observations

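Counts of 2-fold sites differed between chromosomes, beside 0.535% higher and 0.607% lower over all sites tested. Chromosome 11 held 26 higher and 7 lower of 4331 sites tested, chromosome 3 held 5 higher and 21 lower of 3035, and chromosome X held 2 higher and 11 lower of 1321. In windows of 5 Mb, chromosome 6 from 90 to 95 Mb had 5 lower and 1 higher of 110 sites. Both directions together, these lay around Lrig1, Magi1, Slc25a26, Nup210, Nr2c2 and Tmem43. Chromosome 1 from 5 to 10 Mb had 5 lower and 0 higher of 45 (around Mybl1, Mcmdc2, Vcpip1 and Pcmtd1). In the other direction, chromosome 7 from 125 to 130 Mb had 5 higher and 0 lower of 301 sites, the called site near Il21r among them, and chromosome 4 from 130 to 135 Mb had 5 higher and 0 lower of 342. The chromosomes and windows named were chosen for these counts, and neither were tested.

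Weak sites were where the lists differed in presence. When the 100000 top peaks counted as present at one age, 504 of 75957 sites were at P14 only and 491 of 74084 at P9 only.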
